A study of Mus musculus with 8 samples.

Results

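The 30 genes described here encode enzymes and regulators of cholesterol and fatty acid synthesis that are under the control of the sterol regulatory element-binding proteins (SREBPs). They were chosen by symbol, and all 30 were found among the 55487 genes counted by RNA-seq of LLC cells in culture. LLC (Lewis lung carcinoma) is a mouse lung carcinoma line. RNA was sequenced from 4 wild-type libraries and 4 libraries of ΔAgo2 cells, labelled Ago2KO. Ago2 encodes Argonaute 2, which binds microRNAs and represses their targets. The ΔAgo2 cells had been infected with a lentivirus carrying Cas9 and a guide against Ago2 and selected with puromycin. The wild-type cells are not said to have been infected or selected. Single-cell clones were sorted in the study, but whether the sequenced ΔAgo2 cells came from 1 clone is not stated. Both genotypes grew in DMEM with fetal bovine serum, a source of cholesterol and fatty acids, and every library carries the same batch label. The sample titles call the replicates biological, but no label says that they came from separate cultures. The p-values therefore measure the spread between these libraries, which may be technical. In bulk RNA, fewer expressing cells and less RNA per cell cannot be told apart.

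SREBPs are made as precursors in the membrane of the endoplasmic reticulum. When sterols are scarce, SCAP carries them to the Golgi, where proteases release the part that enters the nucleus, and when sterols are plentiful INSIG1 and INSIG2 hold SCAP back. SREBP2 (gene Srebf2) mainly drives the genes of cholesterol synthesis, and SREBP1 (gene Srebf1) mainly those of fatty acid synthesis. The processing of the precursors is not seen in RNA, and only the transcripts were measured.

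The promoters of 3 members are printed to show the letters that SREBPs and their partners are known to bind. They are the 250 bases before and 50 after the start of Hmgcs1 (chr13:119690101-119690400, plus strand), Insig1 (chr5:28071162-28071461, plus strand) and Fasn (chr11:120824498-120824797, minus strand), from RefSeq on GRCm38.p6, each written 5′ to 3′. Capitals mark 4 motifs found on either strand: a sterol regulatory element (TCACNCCAC), an E-box (CACGTG), the CCAAT box of the factor NF-Y (CCAAT) and the GC box of Sp1 (GGGCGG).
Hmgcs1: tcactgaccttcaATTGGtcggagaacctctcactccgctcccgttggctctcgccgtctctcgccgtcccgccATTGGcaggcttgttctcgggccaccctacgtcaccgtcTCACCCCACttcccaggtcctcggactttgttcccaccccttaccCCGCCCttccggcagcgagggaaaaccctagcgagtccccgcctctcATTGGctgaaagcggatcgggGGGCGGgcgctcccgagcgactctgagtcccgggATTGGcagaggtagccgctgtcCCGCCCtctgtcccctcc
Insig1: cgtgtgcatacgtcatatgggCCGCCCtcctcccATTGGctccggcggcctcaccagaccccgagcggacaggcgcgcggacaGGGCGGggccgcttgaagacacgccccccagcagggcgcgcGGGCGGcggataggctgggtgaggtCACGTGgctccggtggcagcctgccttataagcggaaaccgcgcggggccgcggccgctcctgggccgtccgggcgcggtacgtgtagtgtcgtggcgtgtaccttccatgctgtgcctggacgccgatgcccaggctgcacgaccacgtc
Fasn: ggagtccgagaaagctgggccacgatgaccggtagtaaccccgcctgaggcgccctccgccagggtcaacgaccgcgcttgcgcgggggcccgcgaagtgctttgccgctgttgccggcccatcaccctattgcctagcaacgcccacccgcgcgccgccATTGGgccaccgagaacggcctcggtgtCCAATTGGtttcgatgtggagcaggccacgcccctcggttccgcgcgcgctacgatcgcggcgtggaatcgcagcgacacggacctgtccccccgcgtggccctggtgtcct

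The window of Hmgcs1 held 1 sterol regulatory element, 4 CCAAT boxes and 3 GC boxes. That of Insig1 held 1 E-box, 1 CCAAT box and 3 GC boxes. In that of Fasn there were 3 CCAAT boxes, of which 2 overlap on opposite strands. Promoter windows were at hand for 24 of the 30 members, 32 windows in all. Of these, 75.0% held the GC box and 65.6% the CCAAT box, against 35.7% and 37.4% of all 32851 windows. The E-box was in 18.8% of the member windows and 7.15% of all, and the sterol regulatory element in 3.12%, which is Hmgcs1 alone, and 1.24%. A match to these letters describes the sequence and does not show binding.

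Total counts ran from 39628101 to 68530912 per library. Wild-type replicate 4 stood apart from the other wild-type libraries, with a median Spearman correlation of 0.864 with its group against 0.948 to 0.961 for replicates 1 to 3. It had 0.540% of its counts on mitochondrial genes, against 2.39% to 4.51% in the other 7 libraries, and genes rich in G and C were high in it. Its values are therefore given beside the results, and the main comparisons are given with and without it. The epithelial markers Krt8 and Krt18 were detected and Epcam was at or under 3 counts in every library, as were the lung markers Nkx2-1, Sftpc, Sftpb and Scgb1a1 and the leukocyte markers Ptprc and Cd3e. Summed over each list, epithelial markers ranged from 114 to 1259 CPM (each count over its library's total, after edgeR's TMM scaling) in wild-type and from 313 to 509 CPM in ΔAgo2 libraries, fibroblast markers from 13.0 to 77.2 and from 38.9 to 88.9, leukocyte markers from 5.34 to 38.5 and from 4.56 to 16.5, adipocyte markers from 0.312 to 14.2 and from 0.813 to 1.89, and endothelial markers from 0.0621 to 0.569 and from 0.227 to 0.974. Their part in the results was not tested. The transcript of Ago2 itself had a mean of 303.6 ± 165 CPM over the wild-type and of 351 ± 55.7 CPM over the ΔAgo2 libraries (SD, n = 4 each), with an adjusted p of 0.908 in edgeR's test. Its level therefore does not check the genotypes, which are taken here from the labels. The study measured Ago2 protein of both LLC genotypes by western blot.

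All 30 genes were expressed in both genotypes and passed the filter on low counts. On the TPM scale, which corrects for gene length, the desaturase Scd2 had the highest mean level, 780.3 ± 366 TPM in wild-type and 1004 ± 133 TPM in ΔAgo2 cells (SD, n = 4 each). In wild-type order, next came Scd1 at 268 ± 107 and 286 ± 69.2 TPM, then Srebf2 at 175 ± 52.8 and 200.2 ± 40.5 TPM, Fasn at 138 ± 76.3 and 214 ± 27.2 TPM, and Acly at 134 ± 34.5 and 202 ± 37.4 TPM. In wild-type cells, each of these 4 genes below Scd2 lay within 1 SD of the gene ranked next to it. In ΔAgo2 cells Fasn and Acly had higher means than Srebf2. At the low end, Fdps was at 4.55 ± 2.68 and 4.87 ± 2.60 TPM, and Tm7sf2 at 7.02 ± 2.10 and 4.50 ± 0.983 TPM. Idi2, the muscle paralog of Idi1, had 0 counts in all 8 libraries, and Scd3 at most 3 counts. Acat3, a near copy of Acat2, reached 0.373 CPM and Scd4 1.02 CPM, so reads that fit more than 1 copy, which the counting could have dropped, leave the levels of Acat2, Scd1 and Scd2 uncertain.

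No member passed the test between the genotypes across all genes, which does not show that their levels are equal. With 8 libraries, 0 of the 30 members passed an adjusted p of 0.05 (edgeR's quasi-likelihood test, two-sided, Benjamini-Hochberg adjustment over 14228 genes), where 0.295% of all tested genes did, and the lowest adjusted p among them was 0.666. DESeq2 called 0 members as well, where it called 2.23% of all genes with an adjusted p. At an unadjusted p under 0.05, edgeR had 2 members higher in ΔAgo2 cells, Cyp51 and Sc5d, and 1 lower, Tm7sf2, against 2.72% of all genes higher and 4.62% lower. DESeq2 gave the same counts, 2 and 1, where 575 of 27620 genes were higher and 1216 lower. The log2 fold change of ΔAgo2 over wild-type was above 0 for 20 of the 30, where it was above 0 for 41.2% of all genes, and its median was 0.28 against -0.11 over all genes. In no member were the 4 ΔAgo2 values all above or all below the 4 wild-type values, which held for 3.09% and 2.98% of all genes.

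Without wild-type replicate 4, edgeR again called 0 members, where it called 0.777% of 14541 genes. More members lay above 0, 26 of 30 where 45.8% of all genes did, and the median log2 fold change was 0.46 against -0.037 over all genes. At an unadjusted p under 0.05, 4 members were higher, Fasn, Dhcr7, Ebp and Acaca, and 0 lower, where 5.52% and 7.04% of all genes were. In Fasn and Dhcr7 the 4 ΔAgo2 values were all above the 3 wild-type values, as in 5.90% of all genes, and in 0 members were they all below, as in 6.20%. DESeq2 on these 7 libraries called 1 member, Fasn, where it called 3.79% of all genes. With sample quality weights in limma-voom on the 8 libraries, 0 members were called, 17 were above 0 and their median was 0.049, against -0.0038 over all genes. The median of the members also depended on other libraries. It was 0.19 without wild-type replicate 2 and 0.081 without wild-type replicate 3, with 17 and 18 members above 0. Without ΔAgo2 replicate 3 it was 0.073 and without ΔAgo2 replicate 4 it was 0.18, with 17 and 19 members above 0.

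**Figure D1:**
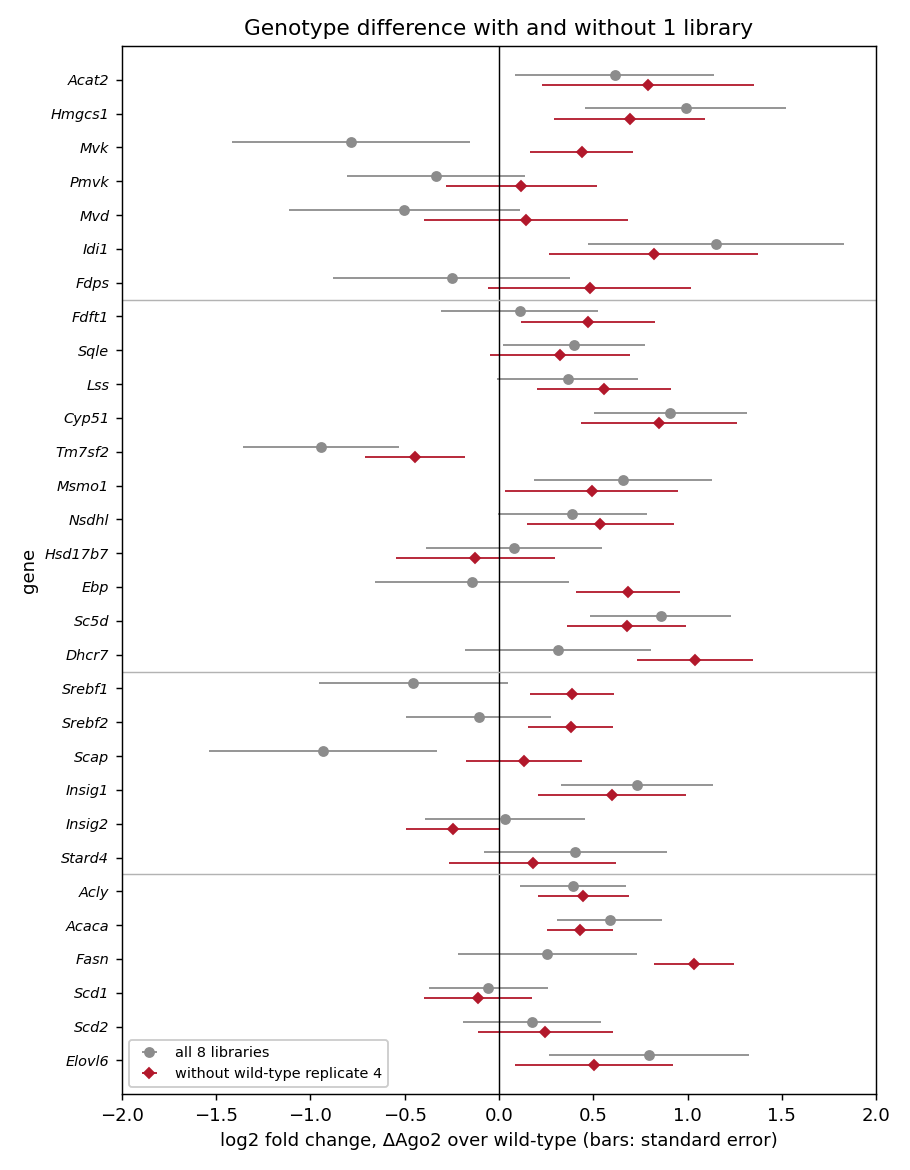
Log2 fold change of ΔAgo2 over wild-type (x axis, log2 units) for each of the 30 genes (y axis, ordered by step of the pathway), with standard errors from edgeR. Circles use all 8 libraries and diamonds leave out wild-type replicate 4: 20 circles and 26 diamonds lie above 0, and Mvk, Scap and Srebf1 are among those that move from below to above 0.

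The 7 genes of the mevalonate steps, which turn acetyl-CoA into farnesyl diphosphate, did not move one way. With 8 libraries 3 had a log2 fold change above 0 and 4 below, with a median of -0.25, and 0 of the 7 had an unadjusted p under 0.05. Without wild-type replicate 4 all 7 were above 0, with a median of 0.48. Hmgcs1 (chr13:119690379-119708260), the synthase that makes HMG-CoA, was at 155, 97.4, 53.8 and 22.6 CPM in wild-type replicates 1 to 4 and at 113, 104, 248 and 186 CPM in ΔAgo2 replicates 1 to 4. Wild-type replicate 1 lay above ΔAgo2 replicates 1 and 2, so the groups overlapped. It had a log2 fold change of 0.99 ± 0.53 (SE, adjusted p = 0.727, edgeR) and of 0.69 ± 0.40 (SE) without wild-type replicate 4. Idi1 (chr13:8885501-8892451), the isomerase of isopentenyl diphosphate, was at 27.0, 15.4, 7.28 and 2.39 CPM in wild-type and at 15.0, 13.0, 46.2 and 41.3 CPM in ΔAgo2 libraries. It had the highest log2 fold change of the members with 8 libraries, 1.15 ± 0.68 (SE), and also their widest spread in both genotypes.

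Mvk (chr5:114444269-114460591), mevalonate kinase, showed the opposite place of wild-type replicate 4. Its wild-type values were 18.1, 20.7, 9.03 and 100.5 CPM, and its ΔAgo2 values were 20.4, 22.5, 19.6 and 23.4 CPM. The ΔAgo2 libraries lay close together, near wild-type replicates 1 and 2, with wild-type replicate 3 below and replicate 4 far above them. The log2 fold change was -0.79 ± 0.63 (SE) with that library and 0.44 ± 0.27 without it. Fdps, which makes farnesyl diphosphate, went from -0.25 to 0.48 in the same way, Mvd, which decarboxylates the pathway's diphosphate, from -0.50 to 0.15, and Pmvk, the second kinase, from -0.33 to 0.12. Acat2, which joins acetyl-CoA units, was at 61.1, 33.6, 8.26 and 50.4 CPM in wild-type and at 37.7, 42.4, 84.7 and 69.9 CPM in ΔAgo2 libraries, with log2 fold changes of 0.61 and 0.79 in the same order. Its wild-type replicate 3 was 7.40-fold below replicate 1.

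Of the 11 genes from squalene synthesis to cholesterol, 9 had a log2 fold change above 0 with 8 libraries and 9 without wild-type replicate 4, with medians of 0.36 and 0.54. Ebp was below 0 in the first case and Hsd17b7 in the second, and Tm7sf2 in both. The first of them, Fdft1, makes squalene and had log2 fold changes of 0.11 ± 0.42 and 0.47 ± 0.35 (SE). Sqle (chr15:59315077-59331192), squalene epoxidase, a rate-limiting enzyme of the later steps, was at 153, 117, 84.5 and 91.3 CPM in wild-type and at 83.8, 90.0, 201 and 211 CPM in ΔAgo2 libraries. ΔAgo2 replicates 3 and 4 lay above every wild-type library and ΔAgo2 replicate 1 below every one. Against this spread, a log2 fold change of 0.40 ± 0.38 (SE, adjusted p = 0.809, edgeR) did not pass, and it was 0.33 ± 0.37 without wild-type replicate 4. Lss, which closes the ring to lanosterol, had log2 fold changes of 0.36 and 0.56.

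Cyp51 (chr5:4081145-4104746), the demethylase of lanosterol, and Sc5d (chr9:42251595-42264256), a sterol desaturase, had the smallest unadjusted p among members higher in ΔAgo2 cells. Cyp51 was at 95.005, 67.3, 37.9 and 53.5 CPM in wild-type and at 73.4, 72.2, 139 and 191 CPM in ΔAgo2 libraries, with a log2 fold change of 0.91 ± 0.40 (SE, adjusted p = 0.674, edgeR). Sc5d was at 100.7, 101.6, 46.4 and 41.9 CPM in wild-type and at 102, 99.3, 145 and 180.1 CPM in ΔAgo2 libraries. This was a log2 fold change of 0.86 ± 0.37 (SE, adjusted p = 0.666, edgeR). With wild-type replicate 4 left out, these were 0.85 ± 0.41 and 0.68 ± 0.32 (SE), with unadjusted p of 0.0694 and 0.0617 in edgeR. The groups overlapped in both, for Cyp51 through wild-type replicate 1 and for Sc5d through replicates 1 and 2. Tm7sf2 (chr19:6062821-6068373), a sterol reductase, was lower in ΔAgo2 cells at an unadjusted p of 0.0455, with 8.60, 7.33, 6.98 and 20.03 CPM in the wild-type libraries and 4.62, 4.25, 6.25 and 7.15 CPM in ΔAgo2 libraries. Its log2 fold change was -0.94 ± 0.42 (SE) with and -0.45 ± 0.27 without wild-type replicate 4, so its unadjusted p was 0.128 without that library.

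The last enzyme of the route, Dhcr7 (chr7:143823145-143848410), reduces 7-dehydrocholesterol to cholesterol. It was at 39.0, 26.9, 15.0 and 95.9 CPM in wild-type and at 45.1, 46.6, 59.6 and 68.3 CPM in ΔAgo2 libraries. Each ΔAgo2 library was above wild-type replicates 1 to 3 and below replicate 4. With 8 libraries the log2 fold change was 0.31 ± 0.49 (SE), and without replicate 4 it was 1.04 ± 0.31 (SE, adjusted p = 0.205, edgeR), with an adjusted p of 0.0542 in DESeq2. Ebp, the isomerase of a late sterol intermediate, likewise went from -0.14 ± 0.52 to 0.68 ± 0.27 (SE). Msmo1 and Nsdhl, which remove methyl groups, had log2 fold changes of 0.66 and 0.39 with 8 libraries and 0.49 and 0.54 without replicate 4, and Hsd17b7, a reductase of the same complex, 0.078 and -0.12.

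The 6 genes of SREBP control and sterol transport had a median log2 fold change of -0.038 with 8 libraries, 3 of them above 0, and of 0.28 with 5 above 0 without wild-type replicate 4. Srebf2 (chr15:82147181-82205379) was at 376, 306.2, 257 and 804 CPM in wild-type and at 321, 325, 468 and 503 CPM in ΔAgo2 libraries. The values overlapped, with wild-type replicate 4 highest of the 8. Its log2 fold change was -0.11 with a 95% interval from -0.96 to 0.75, and 0.38 with an interval from -0.13 to 0.89 without that library. Srebf1 (chr11:60199089-60222581) was at 98.8, 134, 76.4 and 426 CPM in wild-type and at 149, 156, 106 and 124 CPM in ΔAgo2 libraries. Its log2 fold change turned from -0.46 ± 0.50 to 0.39 ± 0.22 (SE) without wild-type replicate 4. Scap (chr9:110333288-110384950), the escort of the precursors, was at 81.1, 169.9, 86.1 and 605 CPM and at 135, 144, 79.7 and 134 CPM, and went from -0.94 ± 0.60 to 0.13 ± 0.31 (SE).

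Insig1 (chr5:28071363-28078662), both an inhibitor of SREBP processing and a target of it, was the member whose ΔAgo2 libraries lay furthest apart among the regulators. It was at 83.1, 74.0, 67.2 and 47.2 CPM in wild-type and at 60.4, 59.9, 171 and 159 CPM in ΔAgo2 libraries. ΔAgo2 replicates 1 and 2 lay inside the wild-type range and replicates 3 and 4 above it, a 2.85-fold range within 1 genotype. Its log2 fold change was 0.73 ± 0.40 (SE, adjusted p = 0.729, edgeR) and 0.60 ± 0.39 without wild-type replicate 4. Insig2, the other inhibitor, was at 85.4, 48.9, 97.9 and 21.3 CPM in wild-type and at 60.8, 61.9, 83.1 and 53.3 CPM in ΔAgo2 libraries, with log2 fold changes of 0.031 ± 0.42 and -0.25 ± 0.25 (SE). Stard4, a carrier of cholesterol between membranes, was at 92.5, 74.4, 25.8 and 24.9 CPM and at 51.9, 44.4, 112 and 79.6 CPM, with log2 fold changes of 0.41 ± 0.49 and 0.18 ± 0.44 (SE).

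**Figure D2:**
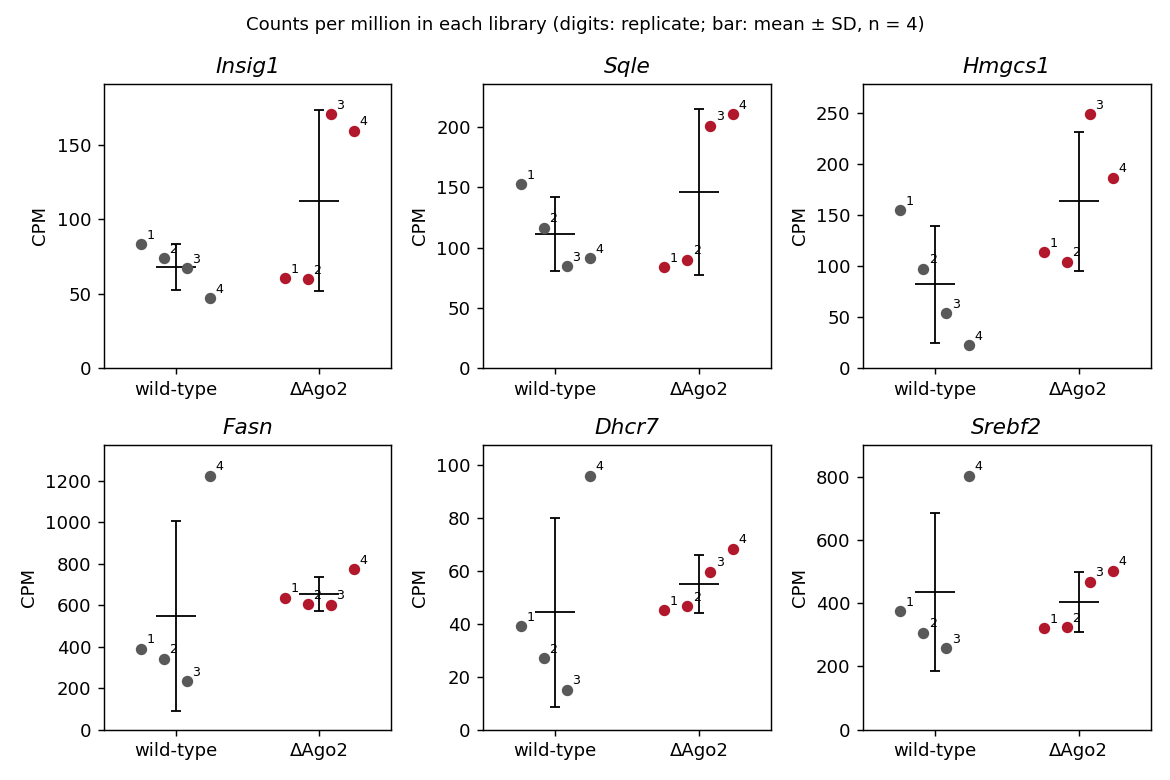
CPM (y axis, linear from 0) of 6 genes in each library of wild-type and ΔAgo2 cells (x axis), with the replicate number beside each point and the mean ± SD (n = 4) as a bar. Insig1, Sqle and Hmgcs1 are highest in ΔAgo2 replicates 3 and 4, and Fasn, Dhcr7 and Srebf2 are highest in wild-type replicate 4.

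The 6 genes of fatty acid synthesis had a median log2 fold change of 0.32 with 8 libraries and 0.44 without wild-type replicate 4, with 5 of the 6 above 0 in each. Acly (chr11:100476353-100528000), which makes cytosolic acetyl-CoA from citrate, was at 285, 218, 161 and 249 CPM in wild-type and at 252, 236, 381 and 329 CPM in ΔAgo2 libraries. Its log2 fold change was 0.39 ± 0.28 (SE), and 0.45 ± 0.24 without wild-type replicate 4. Acaca (chr11:84129672-84401651), the carboxylase that makes malonyl-CoA, was at 107, 122, 93.6 and 61.1 CPM and at 136, 119, 147 and 174 CPM. Only ΔAgo2 replicate 2 and wild-type replicate 2 crossed over. The log2 fold change was 0.59 ± 0.28 (SE, unadjusted p = 0.0612, adjusted p = 0.6996, edgeR) and 0.43 ± 0.18 (SE, unadjusted p = 0.0377, adjusted p = 0.365, edgeR) without wild-type replicate 4.

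Fasn (chr11:120805846-120824547), the fatty acid synthase, had the largest difference against wild-type replicates 1 to 3 relative to its error. It was at 390.0, 341, 232 and 1225 CPM in wild-type and at 635, 605, 601 and 772 CPM in ΔAgo2 libraries. The 4 ΔAgo2 values lay within 1.28-fold of each other, above wild-type replicates 1 to 3 and below replicate 4. With 8 libraries its log2 fold change was 0.26 with a 95% interval from -0.80 to 1.31 (adjusted p = 0.907, edgeR). On the same libraries it was 0.78 with the GC correction (adjusted p = 0.309, edgeR) and 0.82 with sample quality weights (adjusted p = 0.0892, limma-voom). Without wild-type replicate 4 it was 1.03 with an interval from 0.55 to 1.52, a 2.05-fold difference that did not pass in edgeR (adjusted p = 0.0771) and did in DESeq2 (adjusted p = 0.00102). On these 7 libraries, edgeR's adjusted p was 0.0816 with a correction for GC content, and it ranged from 0.0488 to 0.232 when 1 more library was left out, the lowest without wild-type replicate 2. The log2 fold change then ranged from 0.85 to 1.20.

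The desaturases, which place a double bond in saturated fatty acids, differed little in mean. Scd2 (chr19:44293674-44306864) was at 1726, 1638, 559 and 1534 CPM in wild-type and at 1452, 1374, 1925 and 1404 CPM in ΔAgo2 libraries, and wild-type replicate 3 was far below the others. Scd1 (chr19:44394455-44407879) was at 548, 466, 278 and 351 CPM and at 313, 292, 528 and 447 CPM. Their log2 fold changes were 0.17 with a 95% interval from -0.64 to 0.98 and -0.057 with an interval from -0.75 to 0.64. They were 0.25 and -0.11 without wild-type replicate 4. Elovl6, which lengthens palmitate to stearate, was at 136, 143, 50.4 and 27.2 CPM in wild-type and at 111, 90.7, 183 and 235 CPM in ΔAgo2 libraries, with log2 fold changes of 0.79 ± 0.53 and 0.50 ± 0.42 (SE).

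Ratios between paralogs in 1 library do not depend on its total. The TPM ratio of Insig1 to Insig2 was 1.09, 1.70, 0.771 and 2.48 in wild-type and 1.11, 1.09, 2.31 and 3.36 in ΔAgo2 libraries. On the log2 scale the genotypes differed by 0.35 (exact permutation test, two-sided, p = 0.600, n = 4 each). For Srebf1 to Srebf2 the difference was -0.13 (exact permutation p = 0.600) and for Scd1 to Scd2 -0.34 (exact permutation p = 0.257). The differences without wild-type replicate 4 were 0.64, 0.045 and -0.50, with exact permutation p of 0.343, 0.971 and 0.171, where 0.0571 is the smallest that 4 against 3 libraries allow. With 8 libraries, after adjustment over the 3 ratios each p was 0.600, where the smallest p that 4 against 4 libraries allow is 0.0286.

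Taken as a set, the members varied more than other genes between libraries of 1 genotype. In the ΔAgo2 libraries the SD of log2 CPM had a median of 0.485 over the members and 0.229 over all tested genes, and 26 of the 30 members were above the latter. It was highest for Idi1 at 0.951, Insig1 at 0.840 and Mvd at 0.727, and lowest for Mvk at 0.116 and Fasn at 0.169. ΔAgo2 replicate 3 was the highest of its genotype for 16 of the 30 members, replicate 4 for 11, replicate 2 for 3 and replicate 1 for 0. Over all tested genes these libraries were highest for 30.2%, 26.3%, 24.6% and 18.9%. The lowest was replicate 2 for 16 members and replicate 1 for 8, where they were lowest for 21.9% and 21.0% of all tested genes. In wild-type cells the median SD was 0.867 against 0.755 over all genes, and 0.659 against 0.416 without replicate 4. This did not hold for every step. Of the 6 genes of fatty acid synthesis, 3 were above the median of all genes in each genotype. Their median SD was 0.276 in ΔAgo2 and 0.604 in wild-type libraries. Wild-type replicate 3 was lowest for 20 of the 30 members, where it was lowest for 26.4% of all genes.

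Set against the mean of the 8 libraries, the median log2 level of the 30 members was 0.28, -0.16, -0.97 and 0.20 in wild-type replicates 1 to 4 and -0.13, -0.17, 0.62 and 0.47 in ΔAgo2 replicates 1 to 4. The median over all tested genes stayed between -0.045 and 0.048. Wild-type replicate 3 thus lay lowest and ΔAgo2 replicate 3 highest. In each of the mevalonate steps, the steps to cholesterol, the SREBP regulators and fatty acid synthesis, wild-type replicate 3 was lowest, at -1.10, -0.99, -0.66 and -0.84. ΔAgo2 replicate 3 was at 0.95, 0.65, 0.37 and 0.46. In the mevalonate steps wild-type replicate 4 was above it, at 1.16. What set wild-type replicate 3 and ΔAgo2 replicate 3 apart was not tested.

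**Figure D3:**
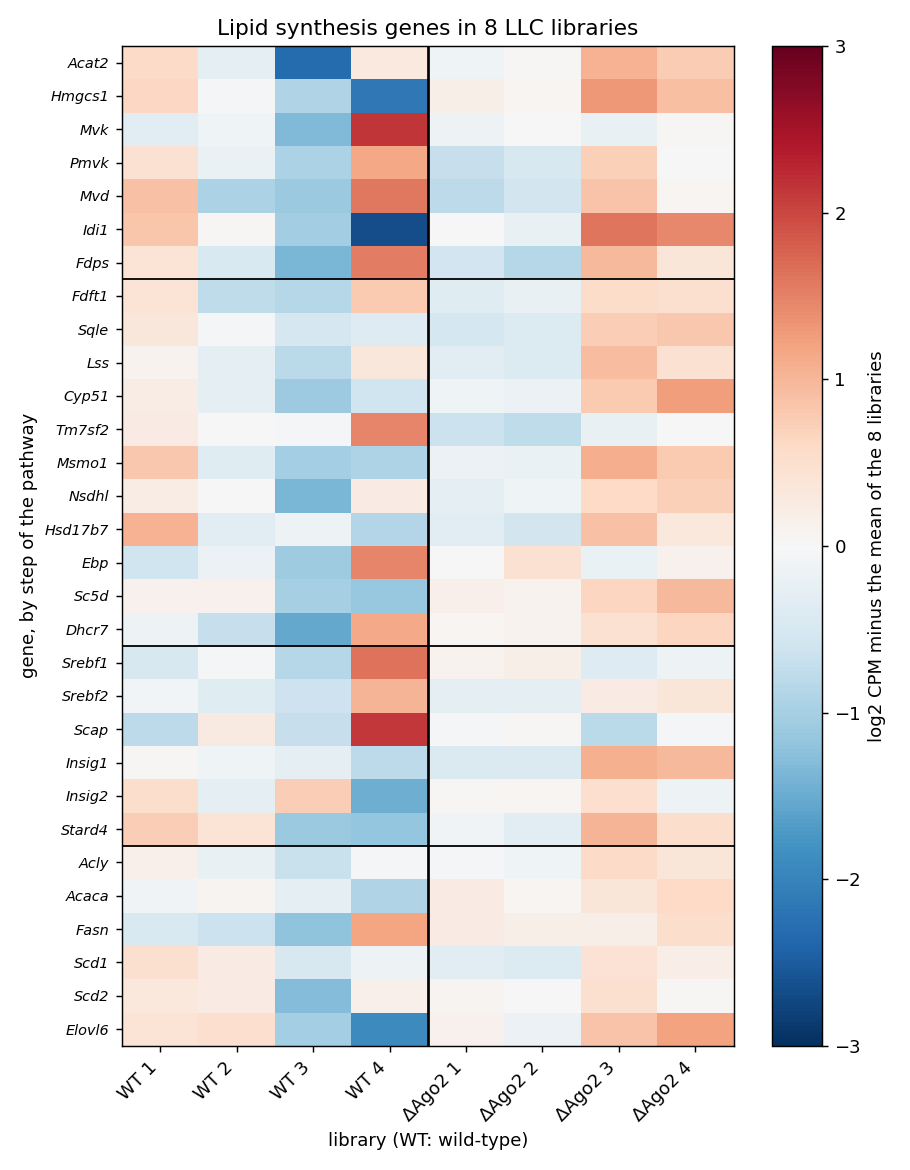
Log2 CPM of each of the 30 genes (rows, by step of the pathway) in each library (columns), as the difference from the gene's mean over the 8 libraries (colour scale, log2 units). Wild-type replicate 3 is mostly blue and ΔAgo2 replicate 3 mostly red, with medians of -0.97 and 0.62, and wild-type replicate 4 holds both the darkest red and the darkest blue.

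Wild-type replicate 4 departed from the other wild-type libraries according to the base composition of the gene. The GC content of the longest transcript ran from 41.9% for Idi1 to 59.1% for Scap, with a median of 49.3% over the members and 49.6% over all tested genes. Of the 13 members with 50% GC or more, replicate 4 was the highest wild-type library in 12 and the lowest in 0, and its median difference from the mean of replicates 1 to 3 was 1.96 on the log2 scale. Of the 17 members under 50% it was the highest in 2 and the lowest in 9, with a median difference of -0.74. Over all tested genes, of any GC content, replicate 4 was the highest wild-type library in 38.2% and the lowest in 40.2%. Across the 30 genes, which share these libraries and are not independent, Spearman's rho between GC content and this difference was 0.88. Over all tested genes it was 0.72. The effect on the comparison followed the same division. With 8 libraries 4 of the 13 GC-rich members and 16 of the 17 others had a log2 fold change above 0, and without replicate 4 these were 12 and 14. The mitochondrial share and the correlation of this library given above move with the same values, and their part in them was not tested.

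**Figure D4:**
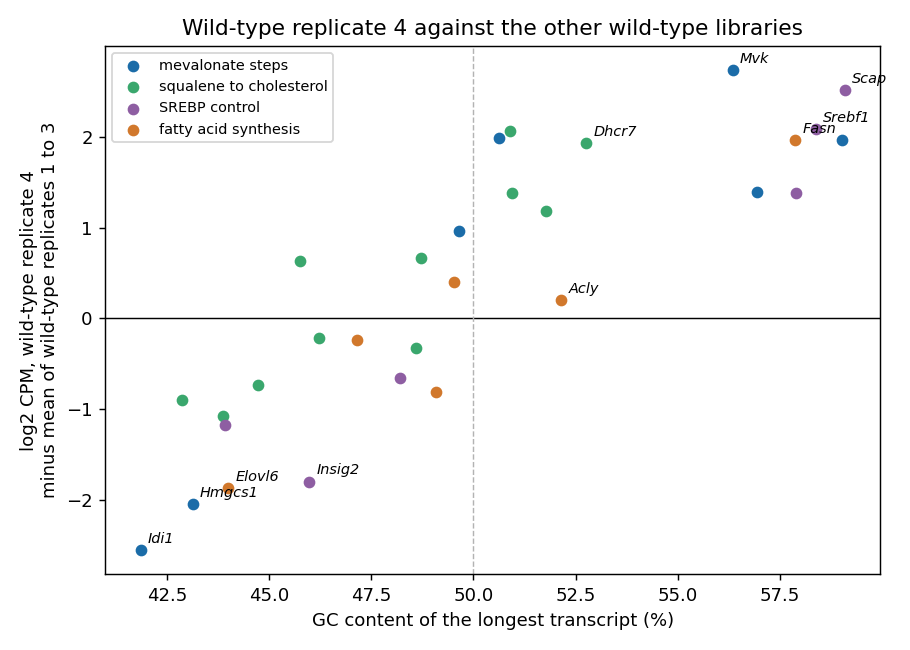
Difference of wild-type replicate 4 from the mean of wild-type replicates 1 to 3 (y axis, log2 CPM) against GC content of the longest transcript (x axis, percent) for the 30 genes, coloured by step of the pathway, with a dashed line at 50%. The 13 points right of the line are all above 0, from 0.21 for Acly to 2.73 for Mvk, and the lowest point is Idi1 at -2.55.

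Genes around these pathways were read from the same test. Among 6 other genes of sterol synthesis, edgeR and DESeq2 called 0. Acat1, a mitochondrial thiolase, had a log2 fold change of 0.37. Of 12 genes of SREBP processing and sterol transport, 11 were tested in edgeR and 0 called. Ube2g2, a ubiquitin-conjugating enzyme, was at -0.74 ± 0.36 (SE), and at -0.39 ± 0.26 without wild-type replicate 4.

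Of the 7 genes of the oxysterol receptor LXR and its targets, edgeR called 0 and DESeq2 1, Abcg1, a transporter that exports cholesterol. Over all genes, edgeR called 0.295% and DESeq2 2.23%. Abcg1 was scarce in all libraries, with 3, 1, 10 and 3 counts in wild-type and 35, 40, 20 and 16 counts in ΔAgo2 libraries. Its log2 fold change was 2.84 ± 0.66 (SE, adjusted p = 0.172, edgeR) and its adjusted p in DESeq2 was 0.00366, with no overlap between the groups. It was 2.91 without wild-type replicate 4 (adjusted p = 0.136, edgeR). Mylip, a ubiquitin ligase induced by LXR, also did not overlap, at 11.4, 15.1, 13.7 and 10.03 CPM in the wild-type and at 18.4, 20.2, 17.4 and 18.5 CPM in ΔAgo2 libraries (log2 fold change 0.57 ± 0.26 SE, adjusted p = 0.678, edgeR, and 0.48 without wild-type replicate 4). Of all tested genes, 3.09% were higher without overlap. Abca1, the other main cholesterol exporter, had a log2 fold change of 0.20 ± 0.67 (SE).

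The other lists showed no called gene in edgeR. Of 13 further genes of fatty acid synthesis, 12 were tested, with 1 higher and 1 lower at an unadjusted p under 0.05. Over all genes, 2.72% were higher and 4.62% lower at that level. Hsd17b12, a reductase of chain elongation, did not overlap and had a log2 fold change of 0.73 ± 0.28 (SE), and Acacb, the carboxylase that regulates fatty acid oxidation, did not overlap and had -1.06 ± 0.41. These were 0.66 and -0.70 without wild-type replicate 4. With 8 libraries, 3.09% of all genes were higher without overlap and 2.98% lower. In a list of 11 genes that activate fatty acids and build glycerolipids, none had an unadjusted p under 0.05 in edgeR. In DESeq2, 1 was lower at that level, as were 1216 of 27620 genes. The named genes of this list, Acsl5 and Agpat2, had log2 fold changes of 0.51 and -1.32, and that of Agpat2 was -0.21 without wild-type replicate 4. Of 10 genes of fatty acid oxidation, 9 were tested, and Cpt2 and Crot had log2 fold changes of -0.60 and -0.86. That of Cpt2 was -0.14 without wild-type replicate 4. Crot, which moves fatty acyl groups out of peroxisomes, was at -1.21 without wild-type replicate 4 (adjusted p = 0.0512, edgeR).

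An intron of Srebf2 holds the gene of miR-33, a microRNA known to repress genes of cholesterol export and fatty acid oxidation. Its mature strands are printed because Argonaute proteins load such RNAs, with the seed, bases 2 to 8, in capitals (RefSeq, GRCm38.p6, plus strand, chr15:82198127-82198147 and chr15:82198167-82198188).
mmu-miR-33-5p: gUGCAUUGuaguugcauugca
mmu-miR-33-3p: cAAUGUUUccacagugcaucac
The counts per gene do not measure mature microRNAs, and the Mir33 gene had 2 counts in ΔAgo2 replicate 1 and 0 in the other libraries. Of 8 known targets of miR-33, all tested, edgeR called 0. At an unadjusted p under 0.05, 1 was higher, Abcg1, as were 2.72% of all genes. Crot, which is also on this list, was lower at that level without wild-type replicate 4, as were 7.04% of all genes. Its log2 fold change was the -1.21 given above. The median log2 fold change of the 8 was 0.093 with 8 libraries and -0.055 without wild-type replicate 4. Over all tested genes it was -0.11 and -0.037.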

How the data were processed

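Counts and TPM of 4 wild-type and 4 ΔAgo2 LLC libraries were analysed. The authors aligned paired-end reads first to ribosomal RNA, next to mm10, and deposited whole-read counts per gene from featureCounts. TPM values of the same libraries, corrected for gene length, were deposited too. The submitters' processing notes name STAR. The annotation release and the strand setting are not given in the sources used here, so overlapping genes could share reads. Symbols, positions, length and GC content came from GENCODE M21 (GRCm38), and 93 identifiers had no match. One list symbol, Faxdc2, had no identifier.

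Counts were filtered with filterByExpr, scaled with TMM and tested by genotype with edgeR 4.0.16 in R 4.3.3, using the quasi-likelihood test and Benjamini-Hochberg adjustment. A standard error is the size of the log2 change over the root of its F statistic. Alternatives used DESeq2 1.42.0, limma 3.58.1 (log2(TPM + 1) and log2(TPM + 0.1) included), other scaling and filters, a GC correction (lowess, span 0.3), the replicate block and each library left out. Fits on 7 libraries other than edgeR's were chosen after seeing the data. Spreads used log2(CPM + 0.1). The methods were tested on simulated data. All members were named, and of each other list the called genes, otherwise the 2 with the smallest p. Abca1 was added for its function after values were seen. Members and lists were chosen with earlier results of these data known. The results for a few genes of these lists are not reported here.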

Additional observations from a re-analysis of the deposited data

Results flagged for a closer look

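In 9 groups of 4 libraries, 1 library lay far from the other 3, where the gap to the nearest library divided by the range of the group was above the 95% critical value of Dixon's test. Chance gives about 1 in 20 such groups, and 100 groups were checked. Wild-type replicate 3 was low for Nsdhl, with a ratio of 0.841, and for Scd2, with 0.896. ΔAgo2 replicate 3 was high for Scd2 (0.835) and low for Scap (0.887), Agpat2 (0.839) and Acsl5 (0.881). Wild-type replicate 4 was high for Cpt2 (0.838). It also stood apart with a ratio of 0.866 for its median Spearman correlation with its group. For the correlation of its deviations with GC content the ratio was 0.933. Each deviation was taken from the mean of the other libraries of the group, so replicate 4 entered those of replicates 1 to 3.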

How the results depend on the processing

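No member was called in any of the 22 settings run on all genes, and the median log2 fold change of the members stayed above 0 in each, from 0.049 with limma-voom and sample quality weights to 0.52 with limma on log2(TPM + 0.1). The number of genes called over the whole table, 42 with 8 libraries, was 399 with DESeq2, 257 with sample quality weights, 143 with no expression filter, 6 with a CPM of at least 1 in at least 4 libraries, 71 with the GC correction, 15 with limma on log2(TPM + 1) and 16 with that and no filter. Leaving out 1 library gave between 1 and 113, with 1 without ΔAgo2 replicate 1, 7 without replicate 2, 3 or 4, 12 without wild-type replicate 1, 78 without wild-type replicate 2 and 113 without wild-type replicate 4. Without wild-type replicate 4, DESeq2 called 1 member, Fasn. Leaving out 1 more library was done in edgeR alone and gave between 0 and 1, Fasn without wild-type replicate 2. On all 8 libraries DESeq2 also called Abcg1, at a log2 fold change of 2.88. The TPM fits move the median of all genes, from -0.11 to 0.15 on log2(TPM + 1) and 0.22 on log2(TPM + 0.1).

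The replicate numbers do not pair the libraries: deviations of same-numbered libraries correlated at -0.14, -0.049, 0.38 and 0.028. A fit with a replicate block called 18 genes and 0 members, with a member median of 0.30, and with the GC correction added it called 65. It changed no call of a member.

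Of 630 member values under the alternatives, 560 kept their direction and 70 turned, over 18 of the members. None of those values had been called, and the cause was not tested. With sample quality weights the log2 fold change turned to 0.34 for Mvk, -0.087 for Fdft1, -0.31 for Sqle, -0.021 for Lss, -0.15 for Msmo1, -0.70 for Hsd17b7, 0.70 for Ebp, 0.47 for Srebf1, 0.023 for Srebf2, 0.39 for Scap, -0.060 for Insig1, -0.28 for Insig2, -0.28 for Stard4 and, outside the members, 0.026 for Agpat2. With the GC correction it turned to 0.070 for Pmvk, 0.034 for Mvd, -0.15 for Hsd17b7, 0.085 for Srebf1, 0.31 for Srebf2 and -0.053 for Insig2. GC correction and replicate block together gave 0.065 for Mvk, 0.049 for Mvd, -0.12 for Hsd17b7, 0.24 for Ebp, 0.15 for Srebf1 and 0.27 for Srebf2, and the replicate block alone 0.21 for Ebp and 0.0092 for Srebf2. On log2(TPM + 1), with or without the filter, it was 0.023 for Mvk, 0.11 for Fdps, 0.36 for Ebp, 0.085 for Srebf1, 0.22 for Srebf2 and 0.16 for Scd1, and on log2(TPM + 0.1) 0.035, 0.16, 0.39, 0.088, 0.22 and 0.16. Library totals alone gave 0.071 for Ebp, 0.063 for Srebf2 and 0.017 for Scd1.

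When 1 library was left out, the log2 fold change ranged from -1.11 to 0.44 for Mvk, -0.70 to 0.12 for Pmvk, -0.92 to 0.15 for Mvd, -0.67 to 0.48 for Fdps, -0.098 to 0.47 for Fdft1, -0.25 to 0.61 for Hsd17b7, -0.40 to 0.68 for Ebp, -0.71 to 0.39 for Srebf1, -0.29 to 0.38 for Srebf2, -1.22 to 0.13 for Scap, -0.25 to 0.32 for Insig2, -0.24 to 0.12 for Scd1 and -0.083 to 0.31 for Scd2. The difference in the log2 ratio of Srebf1 to Srebf2 ranged from -0.31 to 0.054, that of Insig1 to Insig2 from 0.037 to 0.64, lowest without ΔAgo2 replicate 4, and that of Scd1 to Scd2 from -0.50 to -0.13.

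Each member had at least 77 counts in every library.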
